A study of Homo sapiens with 267 samples.

Results

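A set of 10 heat-shock protein and chaperone genes was described over single-cell capture libraries of K562 cells, an established line from a human chronic myelogenous leukaemia. The genes were picked by symbol and found by their Ensembl identifiers, and all 10 were among the 63677 genes of the count table. Of these, 6 are commonly classed as stress-inducible, namely HSPA1A, HSPA1B, DNAJB1, HSPH1, HSP90AA1 and HSPB1. The other 4, HSPA8, HSP90AB1, HSPD1 and HSPE1, are classed as constitutive.

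The study captured K562 cells on a microfluidic chip, in which each site holds at most a few cells, and sequenced cDNA from each site to compare fresh cells with cells preserved in a fixative. Titles of the libraries fell into 3 runs. The labels gave the run, the dyes, the passage and a drug, but not whether a library was fresh or fixed, or from a single cell, an empty site or a bulk sample, so these were not compared here. In the Hoechst run (96 libraries, untreated, passage label 90 to 92) cells carried 2 µM Hoechst 33342 for 20 min, which stains DNA, and 3.75 µM propidium iodide, which enters dead cells. In both other runs (passage label 20 to 22) cells carried a CellTracker dye at 1 µM for 30 min, Green CMFDA or Orange CMRA, with a fixable red stain for dead cells. The benzene run held 38 untreated Green libraries and 37 Orange libraries labelled with 10 mM benzene for 3 h. The imatinib run held 51 untreated Green libraries and 45 Orange libraries labelled with 1 µM imatinib, an inhibitor of the BCR-ABL kinase that K562 cells carry, for 1 h. The labels give these passages with hours as their unit, so it is not settled that they are passage numbers. The drug always came with the Orange dye, so dye and drug cannot be told apart, and each label counts as 1 sample per run, since no separate cultures are named within it.

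Heat-shock proteins hold unfolded proteins and help them fold. HSP70 chaperones bind short exposed stretches of protein with the help of an HSP40 partner and a nucleotide exchange factor, HSP90 chaperones finish the folding of kinases and receptors, and the HSP60 and HSP10 chaperonin encloses proteins inside mitochondria. In stressed cells the factor HSF1 binds heat-shock elements, repeats of the unit GAA and its complement TTC, in front of the inducible genes, while constitutive members are transcribed in unstressed cells too.

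The sequences in front of the genes are shown because they carry these repeats, and because HSPA1A and HSPA1B are near copies. Heat-shock elements were searched as the 2-unit forms GAANNTTC and TTCNNGAA, each of which reads the same on both strands, and as the 3-unit forms GAANNTTCNNGAA and TTCNNGAANNTTC, which are each other's reverse complement and contain the 2-unit forms. The window was the 250 bases before the start of the canonical transcript in the GRCh37 genome. Among 19874 protein-coding genes, 9.43% held a 2-unit match and 0.32% a 3-unit match. Of the members, 8 of 10 held a 2-unit match, all 6 inducible and 2 of the 4 constitutive, and 4 of 10 held a 3-unit match. HSP90AB1 and HSPE1 held neither form in this window. Below, capitals mark the matches. HSPA1A (chr6:31783070-31783319, plus strand) and HSPA1B (chr6:31795265-31795514, plus strand) are shown in full from GRCh37.
HSPA1A: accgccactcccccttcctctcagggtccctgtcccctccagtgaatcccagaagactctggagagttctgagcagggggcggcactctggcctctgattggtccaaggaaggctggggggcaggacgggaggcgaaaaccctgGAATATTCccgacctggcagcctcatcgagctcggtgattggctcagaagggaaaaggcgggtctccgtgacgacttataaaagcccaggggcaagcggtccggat
HSPA1B: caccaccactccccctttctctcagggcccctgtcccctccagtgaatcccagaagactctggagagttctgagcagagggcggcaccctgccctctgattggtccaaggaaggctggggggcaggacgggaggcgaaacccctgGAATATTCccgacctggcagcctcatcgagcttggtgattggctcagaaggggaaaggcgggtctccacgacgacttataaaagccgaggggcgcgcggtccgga
Aligned with a shift of 1 base, these stretches were identical at 235 of 249 positions (94.4%), and each held a single match of the same 8 letters. A stretch of 30 bases around the 3-unit match nearest the start is shown for the 4 members that had one, HSPH1 (chr13:31736079-31736108, minus strand), HSP90AA1 (chr14:102553448-102553477, minus strand), HSPA8 (chr11:122932878-122932907, minus strand) and HSPD1 (chr2:198364783-198364812, minus strand).
HSPH1: gccgcagaTTCTGGAAAGTTCtgatcagtg
HSP90AA1: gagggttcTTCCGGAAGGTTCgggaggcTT
HSPA8: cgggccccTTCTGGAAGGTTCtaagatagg
HSPD1: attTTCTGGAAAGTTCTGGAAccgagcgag
HSPD1 and HSPE1 are transcribed away from each other from starts 539 bases apart on chromosome 2, so that the HSPD1 match lies between both starts but outside the window of HSPE1. A match is a description of letters and not a measured binding site.

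On GRCh37 the inducible genes lie as follows: HSPA1A (ENSG00000204389, chr6:31783320-31785723, plus strand), HSPA1B (ENSG00000204388, chr6:31795515-31798031, plus strand), DNAJB1 (ENSG00000132002, chr19:14625581-14671203, minus strand), HSPH1 (ENSG00000120694, chr13:31709110-31736525, minus strand), HSP90AA1 (ENSG00000080824, chr14:102547079-102606036, minus strand) and HSPB1 (ENSG00000106211, chr7:75931990-75933612, plus strand). The constitutive genes are HSPA8 (ENSG00000109971, chr11:122928197-122933938, minus strand), HSP90AB1 (ENSG00000096384, chr6:44213903-44221625, plus strand), HSPD1 (ENSG00000144381, chr2:198351308-198381461, minus strand) and HSPE1 (ENSG00000115541, chr2:198364864-198368173, plus strand).

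HSPA1A and HSPA1B each have a single exon on chromosome 6 and start 12195 bases apart. Of the 75-base windows of their transcripts, 73.8% and 73.3% occurred elsewhere among annotated transcripts, in 1716 windows in the other gene of the pair. Only unique reads were counted, so read pairs that fit both genes were left out. Reads were sequenced in pairs, so a mate in unique sequence could place a read from a shared window. The windows also include those shared with a gene annotated over the same place, which does not by itself prevent unique placement. These percentages are thus not shares of lost reads. A later annotation also places an uncounted RNA over 36.6% of the HSPA1B exon. The shared windows amounted to 40.4% for HSPE1, 11.1% for HSPD1, 9.4% for HSPB1, 6.7% for HSP90AA1, 5.6% for HSP90AB1 and 1.9% for HSPA8. The readthrough gene HSPE1-MOB4 overlaps 34.5% of the HSPE1 exons, shares 119 of the HSPE1 windows and held 26 reads. The paper lists ambiguously mapped reads apart from assigned reads, so this count does not show how many reads HSPE1 lost to the overlap. DNAJB1 and HSPH1 shared none. Reads counted on pseudogenes equalled 7.97% of the reads of HSPE1 and at most 2.96% for any other member.

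Counts were available for 263 of the 267 labelled libraries, and 242 were kept that had at most 70% of their reads in their top 500 genes: 82 of the Hoechst run, 65 of the benzene run and 95 of the imatinib run. They held 50358 to 2043351 reads on genes, and their median number of genes with more than 2 reads was 7411, 5905 and 8022 in that order. The median mitochondrial share of reads was 12.5% in the Hoechst run against 6.49% and 6.68%. The Hoechst run also differed from both CellTracker runs in passage label, dyes, read length and sequencer, and each run was captured apart, so that differences of the Hoechst run cannot be told apart from these, nor any difference between runs from the capture and culture of each run. Of the markers of K562, GATA1, TAL1, PRAME, HBG2 and HBZ had more than 2 reads in 70.7% to 100% of the libraries of each run. Of genes of other blood cells, CD3E, MS4A1 and CD14 were detected in 1, 0 and 2 libraries in all. Levels are counts per 1000000 reads on genes (CPM), and a member is called detected at more than 2 reads. Reads carry no molecular identifiers, so the intervals given cover counting error only.

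Levels differed between members far more than between runs. Per kilobase of canonical transcript, HSP90AB1, the constitutive cytosolic HSP90, led in every run, with median levels of 1621, 1931 and 3019 CPM per kilobase in the Hoechst, benzene and imatinib runs. HSP90AA1, its inducible counterpart, stood at 744, 582 and 814. HSPA8, the constitutive HSP70 also called HSC70, stood at 317, 472 and 1880, HSPD1 (HSP60) at 269, 261 and 462, and HSPE1 (HSP10) at 346, 222 and 310. The other inducible members were lower, with HSPB1 (HSP27) at 49.5, 27.7 and 60.5, HSPH1 (HSP110) at 11.1, 2.91 and 21.4, DNAJB1 at 7.73, 1.03 and 30.1, HSPA1A at 4.36, 0.911 and 11.4, and HSPA1B at 1.99, 0.764 and 17.2. HSP90AA1 thus stood with the constitutive members, above the other 5 inducible ones in each run. These levels divide unique reads by the full length, although 73.8% and 73.3% of the 75-base windows of HSPA1A and HSPA1B are shared. The levels of this pair may thus be too low, and their order against DNAJB1 and HSPH1 is not settled. HSPE1 shares 40.4% of its windows, so its level may be too low as well. Its order against HSPD1, and against HSPA8 in the Hoechst run, is likewise not settled.

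In the Hoechst and benzene runs the inducible HSP70 genes were low in most libraries and high in a few. Both genes were detected in a larger share of libraries in the imatinib run. Genes with a mean CPM within 2-fold of theirs had a like or larger spread, as given below. HSPA1A ranged from 0 to 187 CPM (median 10.5) in the Hoechst run, from 0 to 98.0 (median 2.19) in the benzene run and from 0 to 297 (median 27.2) in the imatinib run. HSPA1B ranged from 0 to 348 CPM (median 5.02), from 0 to 320 (median 1.9) and from 0 to 455 (median 43.4). The 9, 7 and 10 highest libraries of these runs held 62%, 71.5% and 41.5% of the HSPA1B CPM of their run. Both genes of the pair were detected in 45 of 82, 26 of 65 and 84 of 95 libraries, and neither in 14, 26 and 4. These low medians depend on which libraries enter in the benzene run: with a limit of 60% of reads in the top 500 genes they were 4.36 for HSPA1A and 10.01 for HSPA1B, with 6000 to 8000 genes detected 6.37 and 9.65, and with all libraries 1.54 and 0.842. The summed CPM of the pair was above 100 in 10, 3 and 33 libraries. With every library thinned to 500000 reads on genes, which left out 2 libraries of the Hoechst run, HSPA1A was detected in 62.5%, 38.5% and 87.4% of libraries against 75.6%, 50.8% and 93.7% at full depth, so the order of the runs was the same at equal depth.

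DNAJB1, the HSP40 partner that feeds proteins to HSP70, had the same shape. Its CPM ranged from 0 to 421 (median 17.3) in the Hoechst run, from 0 to 548 (median 2.30) in the benzene run and from 0 to 589 (median 67.5) in the imatinib run. Its benzene-run median was 5.40 with the limit of 60% and 6.53 with 6000 to 8000 genes detected. HSPH1, the HSP110 exchange factor that resets HSP70, ranged from 0 to 407 (median 58.4), from 0 to 896 (median 15.3) and from 0.961 to 405 (median 112). The top 7 of the 65 benzene-run libraries held 75.4% of the DNAJB1 CPM and 66.4% of the HSPH1 CPM. HSPB1, a small heat-shock protein that binds unfolded proteins without ATP, was more even, with 0 to 184 CPM (median 38.5), 0 to 181 (median 21.6) and 3.44 to 194 (median 47), and it was detected in 97.6%, 87.7% and 100% of libraries. HSP90AA1 was detected in every library, at 390 to 4972 CPM (median 2402), 317 to 5236 (median 1878) and 1129 to 5851 (median 2629). Its 3 ranges overlapped almost wholly.

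**Figure D1:**
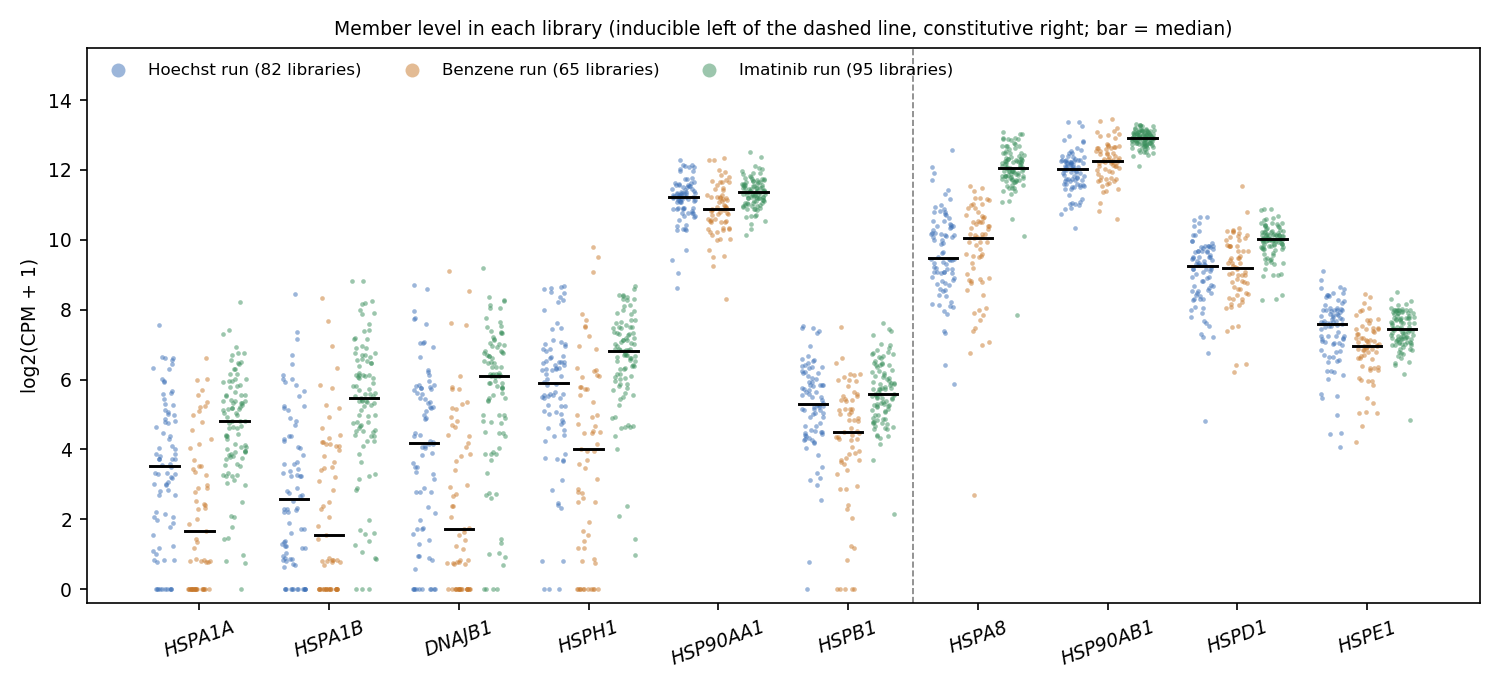
Each point is 1 library and each bar a median, with log2(CPM + 1) on the vertical axis and the 10 members along the horizontal axis, coloured by run. The points of HSPA1A, HSPA1B, DNAJB1 and HSPH1 spread from 0 upwards, while HSPA8 stands higher in the imatinib run (median 4256 CPM) than in the Hoechst (718) and benzene (1069) runs.

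Among the constitutive members, HSPA8 differed most between runs. It ranged from 58 to 6135 CPM (median 718) in the Hoechst run, from 5.52 to 2951 (median 1069) in the benzene run and from 231 to 8680 (median 4256) in the imatinib run. Of the 95 imatinib-run libraries, 84 were above the highest benzene-run library and 17 above the highest Hoechst-run library. HSP90AB1 ranged from 1290 to 10716 CPM (median 4143), from 1553 to 11337 (median 4934) and from 4442 to 10293 (median 7712). Its imatinib-run libraries lay within the range of the others, and 47 Hoechst-run and 23 benzene-run libraries fell below the lowest of them. HSPD1 ranged from 26.9 to 1608 CPM (median 604), from 73.3 to 3004 (median 586) and from 310 to 1875 (median 1037). HSPE1, whose product caps the HSPD1 ring, ranged from 15.7 to 556 (median 193), from 17.6 to 348 (median 124) and from 27.9 to 364 (median 173), with the runs overlapping over nearly all of their ranges.

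Between runs, the mean of log2(CPM + 1) of HSPA8 was 12.04 ± 0.67 (SD, n = 95 libraries) in the imatinib run against 9.61 ± 1.5 (n = 65) in the benzene run and 9.60 ± 1.22 (n = 82) in the Hoechst run, differences of 2.43 and 2.44. A difference above 1 was found for 6 of the 10 members between the imatinib and benzene runs, where 32.8% of 11754 genes had one, and for 4 members between the imatinib and Hoechst runs, where 19.6% of genes had one. The 6 were HSPA1A (2.51), HSPA1B (2.91), DNAJB1 (2.94), HSPH1 (2.68), HSPB1 (1.47) and HSPA8 (2.43). The median difference was 1.95 over the members and 0.63 over all genes in the first comparison, and 0.95 and 0.16 in the second. Between the Hoechst and benzene runs, 4 members had a difference above 1 (27.1% of genes), all inducible, namely HSPA1A (1.26), DNAJB1 (1.45), HSPH1 (1.72) and HSPB1 (1.05), and HSPA8 differed by -0.01. A difference larger than the SD over libraries in both runs was seen for HSPA1A, HSPA1B, DNAJB1, HSPA8 and HSP90AB1 between the imatinib and benzene runs, for HSPA1B, HSPA8 and HSP90AB1 between the imatinib and Hoechst runs, and for no member between the Hoechst and benzene runs. The share of all genes with such a difference was not taken, so it is open whether the members stand out by this measure. With no separate cultures named within a run, no test of these differences was made.

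Because the runs differed in the number of genes detected, the same differences were also taken over the libraries with 6000 to 8000 genes detected. HSPA8 then differed by 2.12 and 2.31 between the imatinib run and the benzene and Hoechst runs. The 4 low inducible members HSPA1A, HSPA1B, DNAJB1 and HSPH1 differed by 1.99, 2.32, 2.16 and 2.09 between the imatinib and benzene runs. In that comparison 6 members remained above 1 and the share of all genes above 1 was 16.7%. Between the Hoechst and benzene runs, 3 members were above 1 (18.2% of genes), and the difference of HSPA1A was 0.45 and that of HSPA1B -0.12.

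Summed over the 10 members, the median CPM was 8748 (3574 to 19981) in the Hoechst run, 8760 (4269 to 15626) in the benzene run and 16387 (9833 to 24501) in the imatinib run. The inducible members took a median of 32.6% of these reads in the Hoechst run, 22.9% in the benzene run and 17.6% in the imatinib run, shares of reads that are not scaled by length. Most inducible reads came from HSP90AA1. Counting only HSPA1A, HSPA1B and DNAJB1 as inducible, the medians were 0.897%, 0.308% and 1.14%, and the order of the runs changed, with the imatinib run highest. HSP90AA1 took 37% (7.94% to 63.6%) of the reads on both cytosolic HSP90 genes in the Hoechst run, 27.3% (7.20% to 70.2%) in the benzene run and 25.6% (11% to 39.9%) in the imatinib run. Of the reads on HSPA8, HSPA1A and HSPA1B, HSPA8 took medians of 97.9%, 99.2% and 98.5%, and its lowest shares in a library were 50.2%, 33% and 48.5%. Reads that fit both HSPA1A and HSPA1B were not counted. The HSPA8 shares may thus be too high, and the shares of HSPA1A, HSPA1B and DNAJB1 too low.

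Spread over libraries was set beside genes with a mean CPM within 2-fold of the member. HSP90AB1 had a coefficient of variation (CV) of 14.8% over the 95 imatinib-run libraries, against a median of 53.2% over 16 such genes, and of 41.8% and 39% in the Hoechst and benzene runs (54.5% and 51.7%). HSPE1 had CVs of 54.8%, 53.6% and 33.3% against 103%, 148% and 78.6%, and HSPB1 had CVs of 80.6%, 99.8% and 62.9% against 164%, 241% and 120%. HSP90AB1, HSPE1, HSPB1 and HSPA1A lay below the middle 50% of such genes in each run. HSPA8 stood above its like-mean genes in the Hoechst run, with a CV of 91.9% against 55.4%, and near them in the benzene (67.8% against 64%) and imatinib (35.9% against 32.2%) runs. HSPA1B had CVs of 219%, 263% and 121% against 219%, 274% and 112%. For DNAJB1 they were 166%, 286% and 107% against 169%, 241% and 105%. For HSPH1 they were 113%, 229% and 72.5% against 133.5%, 189% and 90.1%. HSPA1B, DNAJB1 and HSPH1 lay within the middle 50% of such genes in each run.

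**Figure D2:**
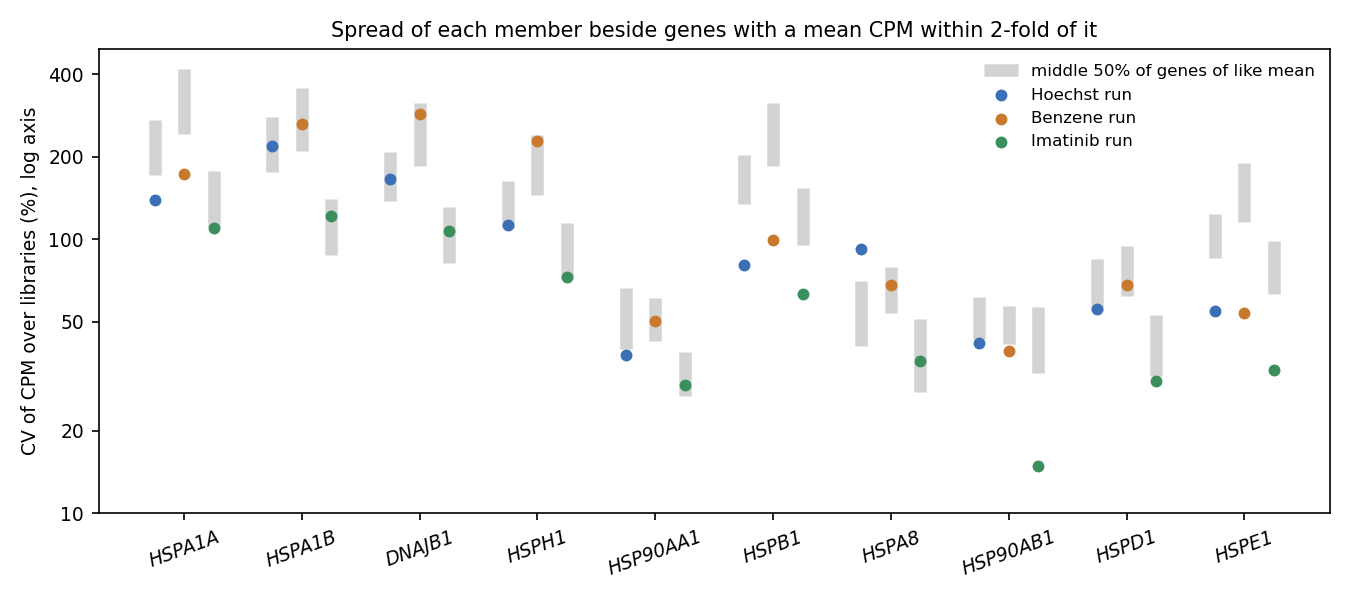
The vertical axis is the CV of CPM over libraries in percent on a log scale, with 1 point per member and run, and grey bars give the middle 50% of genes with a mean CPM within 2-fold. HSP90AB1 (14.8% in the imatinib run), HSPE1, HSPB1 and HSPA1A lie under their bars in all 3 runs, and HSPA8 in the Hoechst run (91.9%) lies above.

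Co-expression was described by Spearman correlation of CPM over the libraries of a run, which share a run. HSPA1A and HSPA1B had the highest correlation of the 45 pairs in each run, 0.60 over 82 libraries, 0.61 over 65 and 0.75 over 95. Both genes share sequence, as given above. The correlation of their summed CPM with the number of genes detected was 0.00, 0.45 and -0.11, and with the ERCC spike-in share of reads it was 0.10, -0.31 and 0.08. With ranks adjusted for the number of genes detected the correlation of HSPA1A with HSPA1B was 0.61, 0.52 and 0.75, thinned to equal depth it was 0.61, 0.66 and 0.74, and without libraries above 10000 genes 0.61, 0.60 and 0.76. The only other pair above 0.2 in all 3 runs was HSPH1 with HSP90AA1, at 0.26, 0.21 and 0.39.

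**Figure D3:**
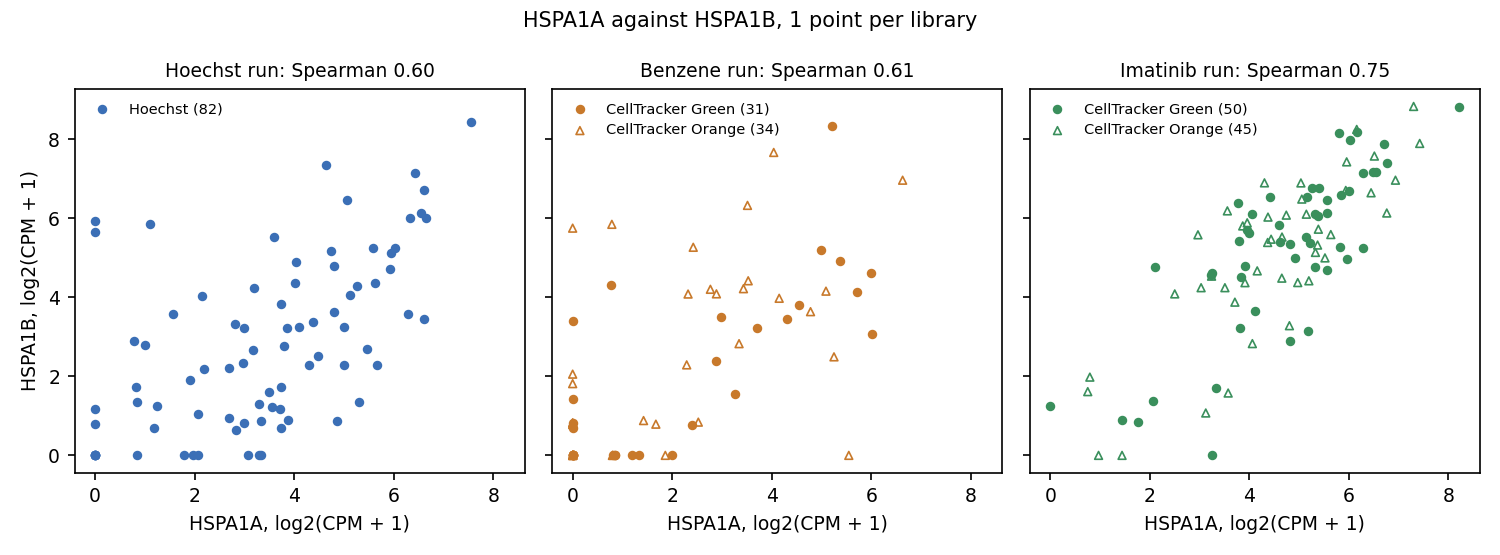
Each point is 1 library, with HSPA1A on the horizontal and HSPA1B on the vertical axis, both as log2(CPM + 1), in 1 panel per run and with Orange libraries as open triangles. The points rise together in each panel (Spearman 0.60, 0.61 and 0.75), and the Green and Orange libraries overlap.

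DNAJB1 did not follow the HSPA1 pair in all runs. Its correlation with HSPA1B was 0.28, 0.35 and 0.04 and with HSPA1A 0.26, 0.19 and 0.03. HSPH1 with HSPA1B gave 0.01, 0.30 and 0.35. HSPB1 with HSPA1A gave 0.15, -0.21 and 0.41. HSPA8 with HSP90AB1 gave 0.49 and 0.35 in the Hoechst and imatinib runs and -0.07 in the benzene run, and HSPA8 with HSPD1 gave 0.37, 0.38 and -0.03. In the Hoechst run HSPA8 and HSP90AB1 had correlations of -0.44 and -0.43 with the mitochondrial share of reads, whose part in theirs was not tested. HSPD1 and HSPE1, which share the stretch between their starts and make the 2 parts of the mitochondrial chaperonin, gave only 0.19, 0.16 and 0.04. HSPE1 had correlations of 0.46, -0.38 and 0.50 with the ERCC share of reads, against -0.14, -0.08 and -0.40 for HSPD1.

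Over the 45 pairs the median correlation was 0.15, 0.07 and 0.19, against 0.03, 0.05 and 0.03 over all pairs of 5098 genes. These genes had more than 2 reads in at least 50% of the libraries of each run, which HSPA1B missed in the benzene run (49.2%). They were not matched to the members by level, and whether the differences go with level was not tested. A correlation above 0.2 was found for 18, 7 and 21 of the 45 pairs (40%, 15.6% and 46.7%), against 10.0%, 15.2% and 8.95% of all pairs. Pairs of inducible members had medians of 0.18, 0.13 and 0.27, pairs of constitutive members 0.28, 0.04 and 0.18, and mixed pairs 0.11, 0.03 and 0.14. These correlations are a description without a test.

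**Figure D4:**
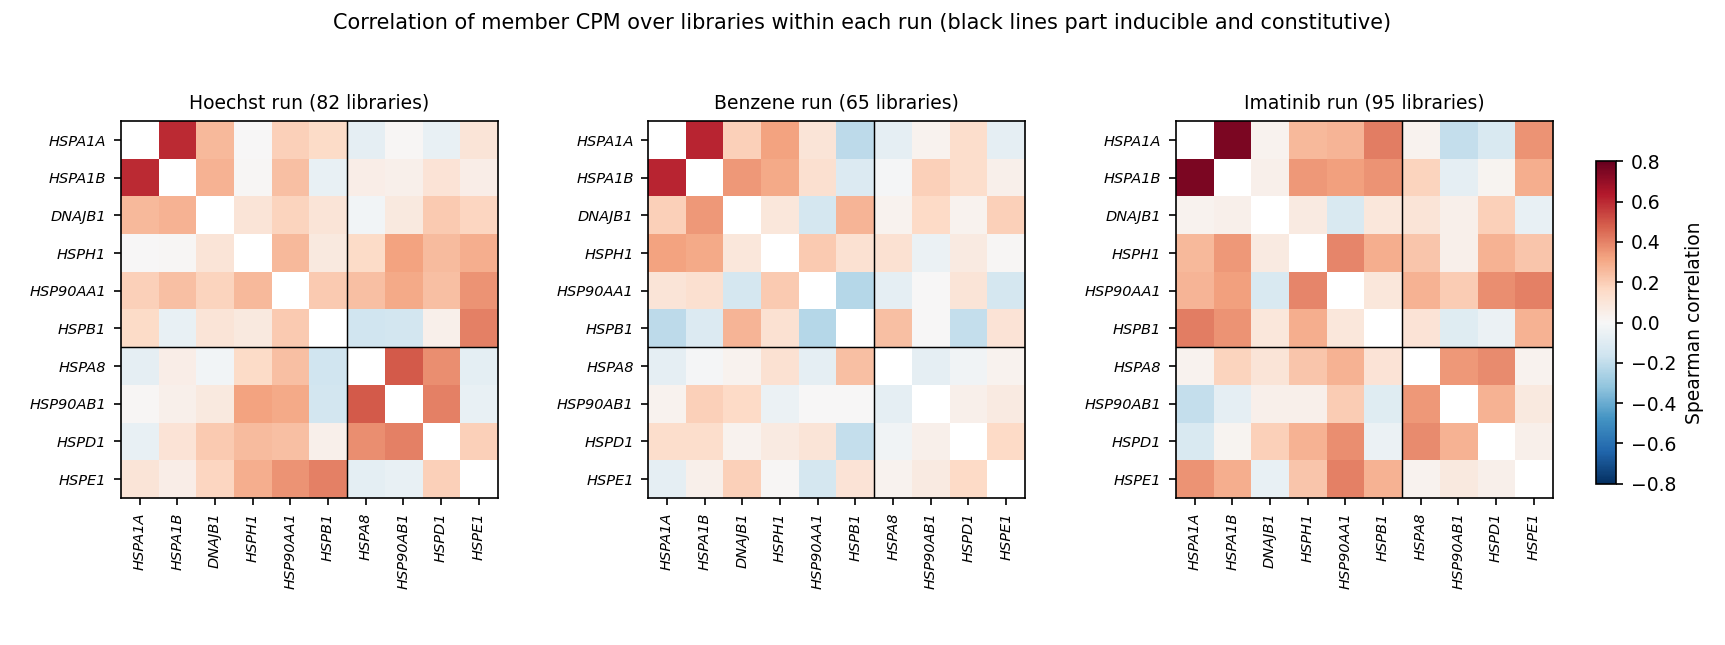
Each cell is the Spearman correlation of CPM of 2 members over the libraries of a run, in 1 panel per run, with inducible members above and left of the black lines. HSPA1A with HSPA1B is the darkest cell in each panel (0.60, 0.61 and 0.75), and HSPA8 with HSP90AB1 is red in the Hoechst (0.49) and imatinib (0.35) runs and pale in the benzene run (-0.07).

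Among 5031 other genes, those most like the summed HSPA1 pair by the mean correlation over the 3 runs were IWS1 (0.34), MTPN (0.29), STRN (0.29), RPL36AL (0.29) and TOP2B (0.28), weak values whose size varied between runs, as for IWS1 at 0.22, 0.53 and 0.27. Those most like the sum of HSPD1 and HSPE1 were RSL24D1 (0.40), a ribosome assembly factor, ATP5PB (0.39), a subunit of the mitochondrial ATP synthase, the pseudogene SNRPEP2 (0.37), EIF1AX (0.37), a translation initiation factor, and NAA50 (0.36). The summed CPM of immediate-early genes had correlations of 0.02, 0.20 and -0.20 with the HSPA1 pair.

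Orange was then compared with Green inside each CellTracker run, on reads summed per label, 1 sum each, so that there was no replicate check. Of the 10 members, 3 differed by more than 1.5-fold in the benzene run, where 44.4% of 9530 genes did, and 0 differed by 2-fold (24.5% of genes). DNAJB1 ranged from 0 to 195 CPM (median 2.10) in 31 Green and from 0 to 548 (median 3.71) in 34 Orange libraries, and its sums were 21.7 and 37.6 CPM, a log2 ratio of 0.79 (95% counting interval 0.68 to 0.91). A single Orange library held 39.95% of the Orange reads, and without it the ratio was 0.10. HSPB1 ranged from 0 to 70.2 CPM (median 14.3) in Green and from 0 to 181 (median 29.3) in Orange libraries, with sums of 21.3 and 35.8 CPM and a log2 ratio of 0.75 (0.63 to 0.87). Its ratio was 0.56 without the highest Orange and 0.84 without the highest Green library.

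HSPH1 was lower in the Orange sum, with 55.9 against 85.7 CPM and a log2 ratio of -0.62 (-0.69 to -0.54), but its medians were 16 in Orange and 14.6 in Green. The highest Green library, at 896 CPM, held 33.7% of the Green reads, and without it the ratio was -0.07, while the mean of log2(CPM + 1) was higher in Orange by 0.15. HSPA1B had a ratio of 0.25 (0.12 to 0.39), and without the highest Green library, which held 63.3% of the Green reads, it was 1.65. HSPA1A had -0.17 (-0.35 to 0.02). The 5 abundant members HSP90AA1, HSPA8, HSP90AB1, HSPD1 and HSPE1 had ratios of -0.18 to 0.17. Over the 23 libraries (13 Green and 10 Orange) with 6000 to 8000 genes detected the ratios were otherwise, at -0.75 for DNAJB1, 0.67 for HSPH1, 0.02 for HSPB1, 1.03 for HSPA1A, -0.26 for HSPA1B and -0.66 for HSPA8, so that the 3 calls either ended or turned and HSPA1A and HSPA8 passed 1.5-fold. With a limit of 60% DNAJB1 was at 0.00, HSPH1 at 1.22 and HSPA1A at 0.28, and HSPB1 at 0.74. For all 10 members the difference of the mean log2(CPM + 1) was smaller than the SD over libraries of either label, as for HSPB1 at 4.61 ± 1.59 (SD, n = 34) in Orange and 3.7 ± 1.9 (n = 31) in Green.

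None of the 10 members differed by 1.5-fold in the imatinib run, where 23% of 10834 genes did, nor by 2-fold (9% of genes). The furthest from 0 was DNAJB1 at 0.47 (0.41 to 0.52), with 74.1 CPM in Green and 102 in Orange, and its means of log2(CPM + 1) differed by only 0.04. HSPA8 was 4984 CPM in Green and 4174 in Orange, a ratio of -0.26 (-0.26 to -0.25), with libraries of 1560 to 8680 (median 4726) and 231 to 7685 (median 3673). The other 8 members had ratios of -0.24 to 0.06, with HSPB1 at -0.24. Over libraries with 6000 to 8000 genes detected HSPB1 was at 0.13 and HSPA1A at 0.38. The differences of all 10 members were again smaller than the SD over libraries.

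**Figure D5:**
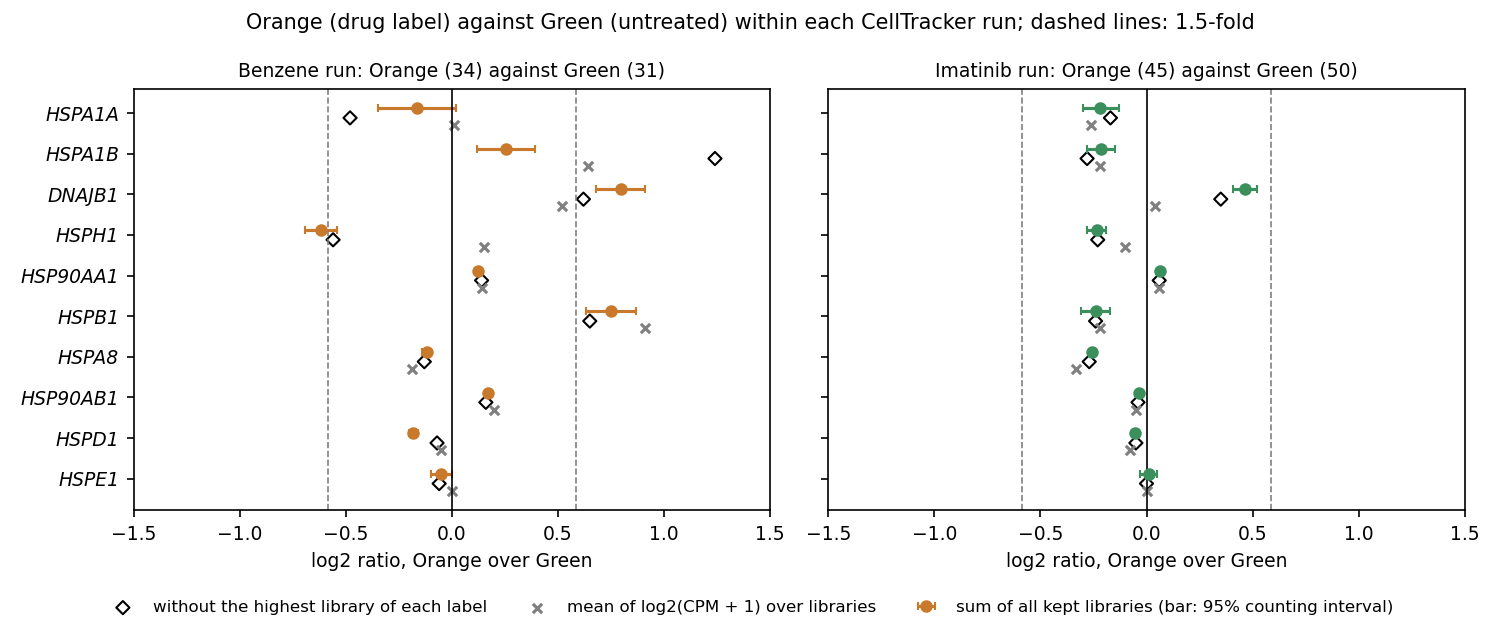
The horizontal axis is the log2 ratio of Orange over Green for the 10 members, in 1 panel per CellTracker run, with dots for summed CPM and bars for its 95% counting interval, diamonds without the highest library of each label and crosses for the mean of log2(CPM + 1). In the benzene run DNAJB1 (0.79), HSPB1 (0.75) and HSPH1 (-0.62) lie past the dashed 1.5-fold lines and the diamond of HSPA1B lies far from its dot, while no imatinib-run dot passes them.

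Both runs were tested together on 4 sums of 42276795 to 63048019 reads by edgeR's quasi-likelihood test with the run as a term, which asks for a difference that both Orange labels share. Of 17684 genes, 0 (0%) passed an adjusted p of 0.05 and 439 passed it unadjusted, and 0 members passed either. With only 4 sums and a term for the run, a lack of calls does not show that the labels were alike. DESeq2 called 117 genes and limma none (1317 and 683 unadjusted), and neither called a member. The smallest edgeR p of a member was 0.0707 for HSPA8 (log2 ratio -0.20, adjusted p = 1, lower in Orange in 2 of 2 runs), which limma put at 0.00113 unadjusted (adjusted p = 1). DNAJB1 had the largest fitted ratio, 0.61 (p = 0.111, adjusted p = 1), and was higher in Orange in 2 of 2 runs. These directions depended on the libraries used. In the benzene run DNAJB1 was at 0.10 without the highest Orange library, 0.00 with the 60% limit and -0.75 with 6000 to 8000 genes, but 0.85 with all libraries. In the imatinib run its means of log2(CPM + 1) differed by 0.04. HSPA8 in the benzene run was at 0.17 with the 60% limit and -0.66 with 6000 to 8000 genes.

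Of 44 further chaperone and cochaperone genes, 40 were expressed in each CellTracker run. In the benzene run 8 were higher in Orange by more than 1.5-fold, 3 were lower and 29 were neither, beside 23.9% and 20.5% of all genes, and their median log2 ratio was 0.23 against 0.04. The 5 furthest from 0 were BAG1, an HSP70 exchange factor (1.43, 1.30 to 1.56), SERPINH1, the collagen chaperone HSP47 (-1.32, -1.44 to -1.21), STUB1, a ubiquitin ligase that works with HSP70 (-1.18, -1.39 to -0.98), CHORDC1, an HSP90 partner (1.04, 0.92 to 1.16), and FKBP4, another HSP90 partner (0.98, 0.88 to 1.07). With each library weighted equally, the mean log2(CPM + 1) differed by 1.13 for BAG1 and 1.10 for CHORDC1 but by only -0.31 for SERPINH1, -0.49 for STUB1 and 0.32 for FKBP4, under 1.5-fold, and STUB1 was detected in 18 of 65 libraries. In the imatinib run 0 were higher and 3 lower, beside 10.3% and 12.7% of genes. These were BAG1 (-0.68), the heat-shock transcription factor HSF2 (-0.67) and the HSP70 exchange factor BAG3 (-0.64). BAG1 thus lay on opposite sides of 0 in the 2 runs, a difference that was not tested.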

How the data were processed

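Reads were trimmed with skewer, mapped to GRCh37 with ERCC spike-in sequences by HISAT2 and marked for duplicates with Picard (1.92) by the authors, who counted unique reads per Ensembl gene with featureCounts in Subread (1.5.0). The authors deposited these counts as whole reads per gene and library, not normalized, beside a CPM table made from them that was not used here. Whether marked duplicates were left out is not given in the sources used here. In the benzene run 4 columns matched no title and 4 titles no column, and these were not used.

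Symbols and coordinates came from GENCODE v44lift37, in which 55665 of 63677 identifiers, with 99% of the reads, were found. The 92 ERCC rows were left out of totals. No libraries had identical counts. Sums were compared by the log2 ratio of CPM, with an exact 95% binomial interval of counting error, and called past a fold of 1.5; genes had to have more than 2 reads in 20% of libraries. Low values were not imputed, and the pseudocount was 1. Summed counts were tested with edgeR (4.0.16, TMM, Benjamini-Hochberg adjustment), and again, under R 4.3.3, with limma (3.58.1) and DESeq2 (1.42.0). Python 3.11.15, pandas 2.3.3 and numpy 2.4.6 gave the rest, and matplotlib 3.10.9 the figures. The ratios, the correlations and the edgeR test were also run on simulated data, whose outcome is not given here. Libraries of a label may share a culture, so spreads over them are not between cultures.

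The members, the limit of 70% and the gene lists were chosen with earlier results of these data known. Named were the 10 members, the 5 largest chaperones past 1.5-fold per run and the 5 genes most correlated with each of 2 sums. The immediate-early genes and the alternatives by number of genes detected were chosen after values were seen. Some marker genes of the lists are not reported here.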

Additional observations from a re-analysis of the deposited data

Results flagged for a closer look

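The 21 libraries left out for having more than 70% of their reads in their top 500 genes also held reads on the members, in each case above the limit of 3 reads. In the 14 of the Hoechst run the summed CPM of the 10 members had a median of 966.5 (220.5 to 4310), in the 6 of the benzene run 8240 (900 to 17650), and in the single library of the imatinib run it was 25975. An HSPA1 gene was detected in 3, 1 and 1 of them. Their mitochondrial share of reads ran from 2.19% to 88.9%, from 1.12% to 47.2% and at 0.423%, and whether these sites held a cell is not given by the labels.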

How the results depend on the processing

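For 78 results, 582 alternatives were computed, 99 of them chosen after seeing the data. Of 112 on the sums, shares, correlations and counts, 99 stayed within the spread or within 1.5 times the count and 13 moved. With only HSPA1A, HSPA1B and DNAJB1 as inducible, the shares were 0.897%, 0.308% and 1.14%. With all libraries the median correlation of the Hoechst run was 0.35. In the benzene run no member (0) passed at 2-fold or on the mean of log2(CPM + 10), and 4 and 6 other chaperones did. In the imatinib run 0 other chaperones passed at 2-fold and 0 on log2(CPM + 10), against 6 on log2(CPM + 1) and 8 in libraries with 6000 to 8000 genes. At 2-fold, 24.5% of all genes passed in the benzene run and 9% in the imatinib run. For the other settings the share of all genes is not given here, so these counts have no background. DESeq2 called 117 genes. Of 470 on single members, 388 stayed so, 69 moved, some of them to the other side of 0, and 13 ratios past 1.5-fold or fitted by edgeR changed sign. In the benzene run HSPH1 had 1.22 with a limit of 60%, 0.67 in libraries with 6000 to 8000 genes and 0.15 on the mean of log2(CPM + 1), and DNAJB1 had -0.75 with 6000 to 8000 genes. The fitted HSPA1B ratio of 0.00 was -0.01 with other size factors, without a filter and in DESeq2, and -0.10 in limma and without the run term. With 1 run left out there was no test, and the ratios ran from -0.22 to 0.25 for HSPA1B, from -0.24 to 0.75 for HSPB1, from -0.04 to 0.17 for HSP90AB1 and from -0.05 to 0.01 for HSPE1, the first 3 lowest without the benzene run. No paired analysis was possible because site numbers in the titles name chip positions, not shared samples, and the only test was on sums. Depth limits HSPA1A, HSPA1B and DNAJB1, which in many libraries had 2 reads or fewer.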
